A study of Bos taurus with 90 samples.

Results

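The genes described here are the 100 liver genes whose expression was lowest in the first of 3 dietary phases in both breeds of cattle studied. They were chosen by the same measured values that are described below, from 24616 genes counted in 90 libraries. Counts were divided by the total of reads counted on genes in the library, in units of counts per 1000000 (CPM), and log2(CPM + 0.5) was averaged within each breed and phase. Of the 8987 genes with a mean of at least 5 CPM, 6629 differed by less than 0.4 on the log2 scale between the grass phase and the second concentrate phase in each breed. A score was computed in each breed as the smaller of the 2 later means minus the mean of the first phase. Of 1461 genes with a score above 0 in both breeds, the 100 with the largest smaller-of-2-breeds score are the members.

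The samples were liver biopsies from Charolais (CH), a beef breed, and Holstein-Friesian (HF), a dairy breed, and all animals were steers fed ad libitum. The phases followed one another in a fixed order. In the first, H1, the steers received a high-concentrate diet of 860 g/kg rolled barley with molasses and soya bean meal at 60 g/kg each and 20 g/kg of minerals and vitamins, beside restricted grass silage. In the second, ZG, they were offered zero-grazed grass, which is cut and carried to housed animals. In the third, H2, they returned to the high-concentrate diet. Between these phases the steers had other diets, grass silage between H1 and ZG and grazed grass between ZG and H2. Within each breed and phase, steers were ranked on residual feed intake (RFI), the difference between the feed an animal eats and the feed predicted from its size and growth, so that low RFI steers are the more feed-efficient. The libraries came from 9 low and 11 high RFI CH steers in H1, 3 low and 3 high in ZG, and 9 low and 8 high in H2. For HF they came from 7 low and 9 high RFI steers in H1, 10 low and 8 high in ZG, and 5 low and 8 high in H2. H1 and H2 shared the concentrate ration but differed in steer age, in the order of the phases and in the diets that came before. These differences cannot be told apart, while H1 and ZG differed in diet as well.

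The liver is the main site at which ruminants handle the acids absorbed from the rumen, make glucose, and neutralise reactive and foreign compounds. Concentrate feeding shifts rumen fermentation towards propionate, which the liver converts to glucose. Just 2 of the 100 members could be given a gene symbol, and both belong to the neutralising functions. GSTM1 is a mu-class glutathione S-transferase, a cytosolic enzyme that joins glutathione to electrophilic compounds. PRDX6 is a peroxiredoxin that reduces hydrogen peroxide and oxidised phospholipids with glutathione as its reductant and that also has phospholipase activity. The other 98 members are known here only by their Ensembl identifiers, because the study's own gene list, the source of symbols, names 328 identifiers. That list was drawn from genes that differed between RFI groups in these same libraries, so that the named members are not a sample of the 100, and their RFI differences are not independent evidence.

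Library depth, as reads counted on genes, ran from 9097695 to 63621304 around a median of 18858293. The libraries came from 73 numbered steers. Within a breed, 14 of these were sampled in several phases, and 1, steer 1797, was labelled CH in H1 and HF in H2. Calls and counts of members that moved by over 1.5 times without this steer are given both ways. Its libraries had a mean member level, defined below, of -0.418 in H1 and 0.361 in H2, and without them the rule took 93 of the same 100 genes. No pair of libraries was identical, and the highest correlation between a pair was 0.989. The label liver could not be checked against defining markers, since 1 of 121 cell type markers matched a named identifier.

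The phase differences are the values that chose the members and are given without a test. In CH the median member was higher than in H1 by 0.42 in ZG and by 0.37 in H2, on the log2 scale. In HF the median member was higher than in H1 by 0.37 in ZG and by 0.46 in H2. The median score was 0.32, a 1.25-fold difference, and scores ran from 0.26 to 1.00. Of the members, 33 scored under 0.3, 53 scored from 0.3 to below 0.4, 9 from 0.4 to below 0.5, and 5 scored 0.5 or more. The differences were therefore small for most members, and a few genes made up the upper tail. The last 3 members inside the limit scored 0.2615, 0.2607 and 0.2605, and the next 3 genes scored 0.2596, 0.2592 and 0.2576, so that the lower edge of the group is arbitrary. In bulk liver, a lower level cannot be told apart from fewer cells of a type that expresses the gene.

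The median of all genes lay the opposite way on this scale, a direction that depends on the scaling, since with TMM factors it was 0.04 and 0.09 above H1 in ZG and H2 for CH and 0.06 and 0.09 above it for HF. The median of the 8987 genes was lower than in H1 by a log2 difference of -0.02 in ZG and -0.16 in H2 for CH, and of -0.22 in ZG and -0.10 in H2 for HF. Relative to these medians, the median member was higher by 0.44 in ZG and 0.53 in H2 for CH, and by 0.59 in ZG and 0.55 in H2 for HF. With CPM scaled by TMM factors, which set the bulk of genes level between libraries, the 100 members scored from 0.33 to 1.258. These factors raised the later phases against H1, so that scores above 0 followed from how the members were chosen. They are not separate support. The group itself depended on the scaling, as the same rule applied to TMM-scaled CPM took 56 of the same 100 genes. GSTM1 was among them, whereas PRDX6 was not, although its TMM scores were 0.40 in CH and 0.66 in HF. The 100 most abundant genes took a median of 51.8% of reads in H1, 54.9% in ZG and 56.5% in H2, and the part of this shift in the members' differences was not tested.

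**Figure D1:**
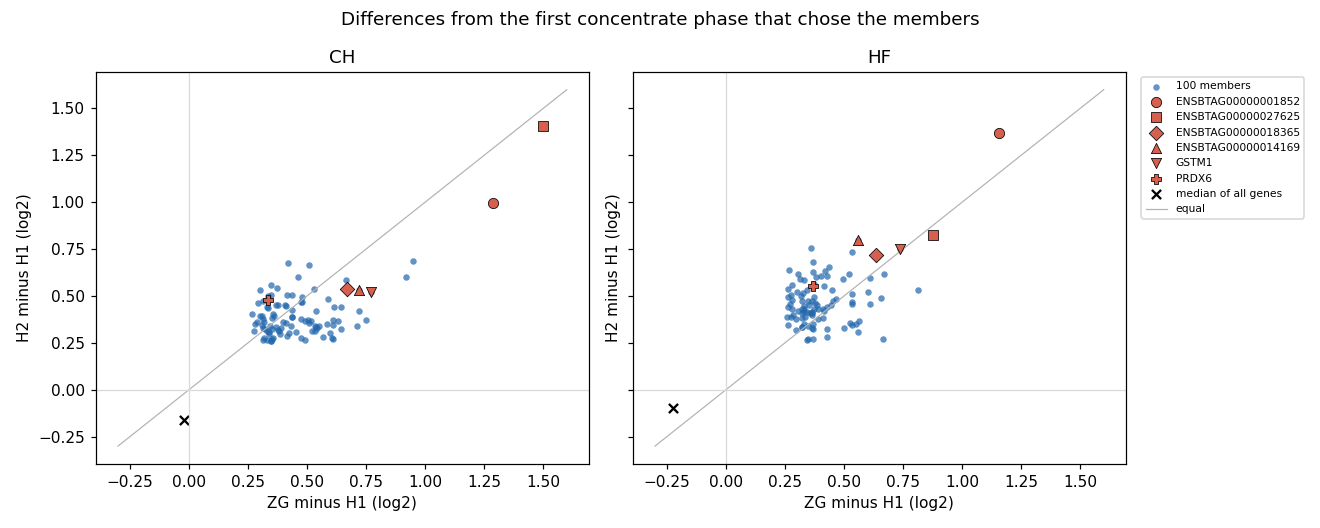
Each point is 1 member, with its mean log2(CPM + 0.5) in ZG minus H1 on the x axis and in H2 minus H1 on the y axis, for CH (left) and HF (right). Red symbols mark the 6 members described singly and the cross marks the median of 8987 genes, which lies below 0 on both axes in both breeds. Most CH members lie below the line of equality and most HF members above it, an order that turned for the median member with TMM factors.

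The second concentrate phase and the grass phase were close for the members by the rule, and which of them was higher depended on the scaling. By library total, in CH, 65 of the 100 members had a higher mean in ZG than in H2, compared with 82.4% of all genes. In HF, 28 of the 100 had the higher mean in ZG, compared with 25.7% of all genes. With TMM factors the order turned, as the median member was above H1 by 0.49 in ZG and 0.63 in H2 for CH, and by 0.66 in ZG and 0.65 in H2 for HF. By library total, 24 of the 100 were higher in ZG in both breeds, 31 were higher in H2 in both, 41 were higher in ZG in CH alone and 4 in HF alone.

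Many members were abundant transcripts. Their mean level ran from 5.98 to 7287 CPM with a median of 102 CPM, against a median of 20.2 CPM for all 8987 genes. Of the members, 51 had a mean of at least 100 CPM, compared with 11.0% of all genes and 9 were among the 100 most abundant genes. CPM is not divided by transcript length, so that these levels do not rank transcripts per cell. The members together took 3.55% of reads in the median H1 library (range 2.72% to 4.23%), 5.00% in ZG (3.57% to 6.17%) and 4.99% in H2 (3.07% to 5.68%).

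The mean level of the 100 members in each library, with each gene set to 0 at its mean over the 90 libraries, placed most H1 libraries below the later ones. In CH the H1 libraries ran from -0.418 to -0.036 with a median of -0.290. The 6 CH libraries of ZG ran from 0.105 to 0.364, all above every H1 library, and those of H2 ran from -0.299 to 0.371 with a median of 0.186. In HF the H1 libraries ran from -0.364 to -0.112 with a median of -0.253, those of ZG from -0.199 to 0.483 with a median of 0.142, and those of H2 from 0.027 to 0.395 with a median of 0.233. Of the 23 later CH libraries, 20 were above every H1 library, and of the 31 later HF libraries 29 were.

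The few later libraries that reached down into the H1 range were from individual steers. In CH these were steer 454 (low RFI, -0.299), steer 419 (high RFI, -0.200) and steer 1316 (low RFI, -0.038), all in H2. In HF they were steer 2272 (high RFI, -0.199) and steer 2065 (low RFI, -0.175), both in ZG. Steers 454, 1316, 2272 and 2065 had libraries of 11392110, 10579794, 11985778 and 12063648 reads, in the lower range of depth, while that of steer 419 held 22631012 reads, and the part of depth was not tested. The H1 library nearest to the later ones was that of CH steer 1100 (low RFI, -0.036).

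**Figure D2:**
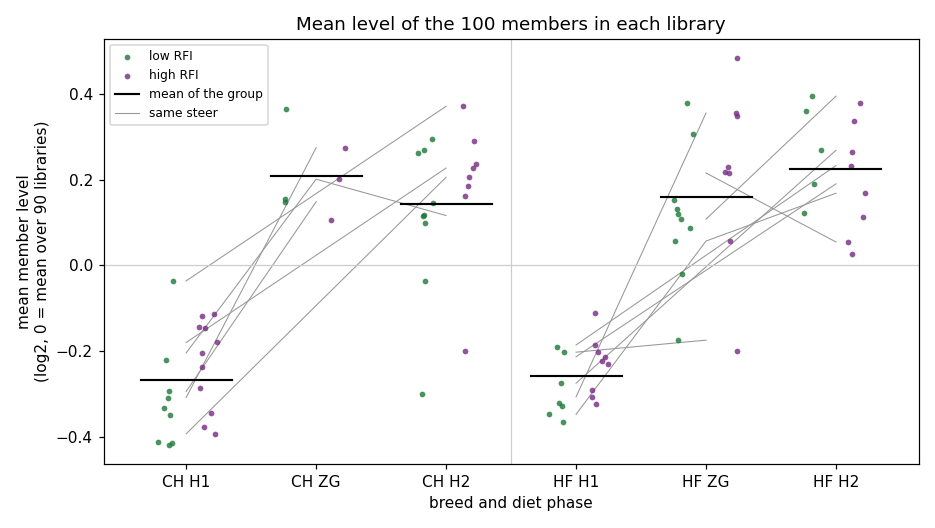
Each point is 1 library, with the mean over the 100 members of log2(CPM + 0.5) minus the gene's mean over 90 libraries on the y axis, by breed and phase on the x axis. Green is low RFI, purple is high RFI, black bars are group means, and grey lines join the values of a steer sampled in more than 1 phase within a breed, drawn at the centre of each group. Of the later libraries, 20 of 23 in CH and 29 of 31 in HF lie above every H1 library.

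For single members the libraries overlapped. Every CH library of H1 was below every CH library of ZG for 8 members, against 0.167% of all genes. The same held for 1 member between H1 and H2 in CH (0.0111% of all genes), for 1 between H1 and ZG in HF (0.0111%) and for 1 between H1 and H2 in HF (0.0334%). No member, and 0% of all genes, had every H1 library below every later library in either breed. Of all pairs of an H1 and a later library, the H1 library was lower in 87.1% for the median member in CH, with a range of 67.8% to 99.8%, and in 86.1% in HF, with a range of 69.0% to 96.98%.

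ENSBTAG00000001852 had the largest score, 1.00 in CH and 1.16 in HF, which correspond to 1.99-fold and 2.23-fold. In CH its level ran from 16.3 to 70.1 CPM in H1 with a median of 40.7, from 54.8 to 161.8 CPM in ZG with a median of 89.0, and from 43.0 to 160.0 CPM in H2 with a median of 74.1. In HF it ran from 9.65 to 61.5 CPM in H1 with a median of 31.8, from 38.1 to 117.5 CPM in ZG with a median of 72.7, and from 34.2 to 173.1 CPM in H2 with a median of 89.2. The phases overlapped in both breeds, although 14 of 23 later CH libraries and 20 of 31 later HF libraries were above every H1 library.

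ENSBTAG00000027625 was second, with a score of 1.404 in CH and 0.82 in HF, and it was the most variable member, with a standard deviation within groups of 0.94 on the log2 scale. In CH it ran from 2.60 to 57.6 CPM in H1 with a median of 9.96, from 23.7 to 45.1 CPM in ZG with a median of 35.9, and from 16.6 to 52.6 CPM in H2 with a median of 32.2. In HF it ran from 4.21 to 125.3 CPM in H1 with a median of 17.5, from 11.9 to 70.3 CPM in ZG with a median of 33.9, and from 6.24 to 57.8 CPM in H2 with a median of 33.7. In each breed 1 H1 library, at 57.6 CPM in CH and 125.3 CPM in HF, exceeded all later libraries, so that 0 later libraries in either breed were above every H1 library.

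ENSBTAG00000018365 was one of the most abundant members, with a score of 0.54 in CH and 0.64 in HF. In CH it ran from 2654 to 7130 CPM in H1 with a median of 4566, from 6473 to 7903 CPM in ZG with a median of 7048, and from 3718 to 8355 CPM in H2 with a median of 7003. In HF it ran from 3282 to 9167 CPM in H1 with a median of 4380, from 5567 to 8773 CPM in ZG with a median of 6968, and from 3992 to 9534 CPM in H2 with a median of 7799. The HF maximum in H1 was a single steer, 2220, since the next library of its RFI group was at 4999 CPM. ENSBTAG00000014169 was at the other end of abundance, with H1 medians of 5.89 CPM in CH and 4.71 CPM in HF. Its later medians were 9.84 CPM in ZG and 7.90 CPM in H2 for CH, and 6.55 and 7.72 CPM for HF, and its libraries overlapped widely.

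GSTM1 (ENSBTAG00000037673) had the fifth-largest score, 0.52 in CH and 0.74 in HF, or 1.44-fold and 1.67-fold. In CH it ran from 59.4 to 286.6 CPM in H1 with a median of 215.6, from 231.6 to 432.5 CPM in ZG with a median of 331.6, and from 88.8 to 394.3 CPM in H2 with a median of 312.1. In HF it ran from 71.8 to 351.5 CPM in H1 with a median of 177.8, from 167.7 to 397.8 CPM in ZG with a median of 310.9, and from 142.1 to 451.2 CPM in H2 with a median of 307.2. The lowest values in each phase overlapped the H1 range, and 14 of 23 later CH libraries and 9 of 31 later HF libraries were above every H1 library. The symbol GSTM1 is given to another identifier as well, ENSBTAG00000017765, which is not a member and scored 0.21 in CH and 0.28 in HF. Residuals of the identifiers around their group means correlated at 0.74 over 90 libraries. Sequences were not compared, and whether reads are split between the identifiers is uncertain.

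PRDX6 (ENSBTAG00000004855) ranked 36 among the members, with a score of 0.34 in CH and 0.37 in HF, or 1.26-fold and 1.29-fold. In CH it ran from 130.6 to 271.1 CPM in H1 with a median of 171.7, from 178.1 to 276.9 CPM in ZG with a median of 220.3, and from 172.8 to 285.2 CPM in H2 with a median of 249.7. In HF it ran from 115.4 to 212.6 CPM in H1 with a median of 182.1, from 149.4 to 266.4 CPM in ZG with a median of 227.1, and from 212.5 to 298.3 CPM in H2 with a median of 271.3. Its difference was small but its spread was small too. In HF, 26 of 31 later libraries were above every H1 library, whereas 5 of 23 were in CH, where 1 H1 library stood at 271.1 CPM.

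**Figure D3:**
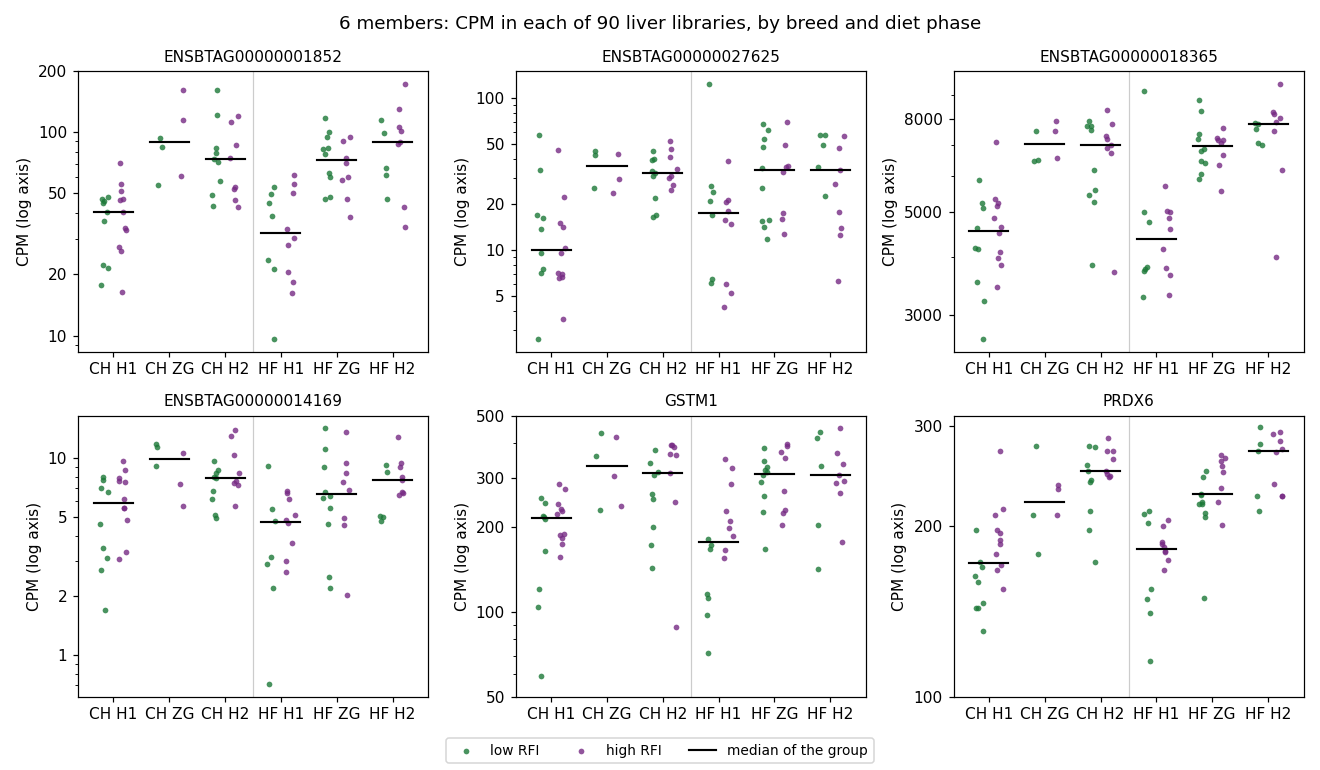
Each panel shows the CPM of 1 member on a log axis in every library, by breed and phase, with low RFI in green, high RFI in purple and the group median as a bar. The H1 medians are the lowest of each breed in all 6 panels, and single H1 libraries of ENSBTAG00000027625 (125.3 CPM) and ENSBTAG00000018365 (9167 CPM) in HF stand above the rest of their group.

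Genes of glutathione and foreign compound metabolism could be followed only in part. Of 35 symbols on the list for foreign compound metabolism, 3 matched (4 identifiers), and of 23 symbols on the list for selenium and redox enzymes 1 matched, PRDX6. Other lists likewise matched less than 80% of their symbols, so that a description of any list as a whole is void. CYP3A5, a cytochrome P450 that oxidises drugs and steroids, scored 0.23 in CH and 0.25 in HF, a little below the limit. GSTA4, an alpha-class transferase active on lipid peroxidation products, scored -0.04 in CH and 0.11 in HF.

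Members were weakly correlated with one another within groups. After removing the means of the 12 breed, phase and RFI groups, the median correlation over the 4950 pairs of members was 0.23 over the 90 libraries, compared with 0.11 for pairs of all genes. Correlations above 0.5 were less frequent among members, at 10.2% of pairs against 17.5% of pairs of all genes. These correlations share libraries and depth and are a description. Between GSTM1 and PRDX6 the correlation was 0.08. Correlations with the mean of the other members were 0.34 for GSTM1 and 0.43 for PRDX6. They were 0.11 for ENSBTAG00000001852, 0.22 for ENSBTAG00000027625, 0.18 for ENSBTAG00000018365 and -0.19 for ENSBTAG00000014169. The standard deviation within groups was a median of 0.29 for members and 0.32 for all genes, and for 35 of the 100 members it exceeded the score.

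Steers sampled in H1 and again later allowed the differences to be followed within animals, as part of the values that chose the members. There were 14 such pairs from 12 steers, in 6 of which the steer was in another RFI group in the later phase. In the 7 CH pairs, 91 to 99 of the 100 members were higher in the later library, with a median difference between 0.30 and 0.57 on the log2 scale. In the 7 HF pairs, 48 to 98 members were higher, with a median difference between -0.015 and 0.64, and the lowest count was that of steer 2065 in ZG, where the next lowest was 83 (steer 5632 in ZG). Of all genes, 19.1% to 60.6% were higher in the later library of a pair. ENSBTAG00000001852 was higher later in 14 of 14 pairs, GSTM1, PRDX6 and ENSBTAG00000018365 in 13, and ENSBTAG00000014169 in 12. ENSBTAG00000027625 was higher in 12 pairs, but in steer 5632 it was lower than in H1 by a log2 difference of -4.22 in H2 and -3.09 in ZG. GSTM1 in the same steer was higher by 1.71 in H2 and 1.203 in ZG.

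The members were then compared between low and high RFI steers, a contrast that the rule, which averaged over RFI groups, did not use. The same library values entered the rule, those of H1 above all, so these tests are not independent of how the members were chosen. For each breed and phase, edgeR's quasi-likelihood test was run over all genes, and a gene was called at a Benjamini-Hochberg adjusted p under 0.1. All 100 members were tested in each fit, and 0 were called in any of the 6. The share of all genes called was 0.0155% for CH in H1 and 0% in the other 5 fits. All members had a mean of at least 5 CPM, whereas the genes tested included less abundant ones. Shares of all genes, here and below, are therefore a rough comparison between unlike sets. Log2 fold changes are given as low over high RFI throughout.

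In H1, members tended to lower levels in low RFI steers of CH without any passing the test. The mean level of the 100 members ran from -0.418 to -0.036 with a median of -0.334 in the 9 low RFI steers and from -0.393 to -0.113 with a median of -0.204 in the 11 high RFI steers, so that the groups overlapped. The median member had a log2 fold change of -0.18 against 0.005 for all 12920 genes tested, and 91 members had a negative value, compared with 48.7% of all genes. An unadjusted p under 0.05 was found for 25 members, all lower in low RFI, whereas 5.71% of all genes were lower at this threshold. Without steer 1797, 19 members were lower at this threshold. The members share libraries and are correlated, so that the count does not measure 25 separate observations.

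PRDX6 had the smallest p of the members in CH in H1. It ran from 130.6 to 196.9 CPM with a median of 159.1 in the 9 low RFI steers and from 154.5 to 271.1 CPM with a median of 188.5 in the 11 high RFI steers. The groups overlapped, with 4 low RFI values below all high RFI values and 3 high RFI steers above every low RFI steer. The log2 fold change was -0.39 ± 0.10 (SE; edgeR adjusted p = 0.198), and it was called by DESeq2 (adjusted p = 0.0464). Its symbol came from the study's list, which was made with DESeq2 on these libraries, so the DESeq2 call is not separate evidence. Over its alternatives the adjusted p ran from 0.0464 to 0.331. GSTM1 in the same steers had a log2 fold change of -0.38 ± 0.22 (SE; edgeR adjusted p = 0.504).

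In HF in H1, members again tended to lower levels in low RFI steers, and none passed the test. The mean level of the 100 members ran from -0.364 to -0.190 with a median of -0.321 in 7 low RFI steers and from -0.324 to -0.112 with a median of -0.224 in 9 high RFI steers. The median log2 fold change was -0.10 against 0.01 for all 13025 genes, and 69 members had a negative value, compared with 47.7% of all genes. At an unadjusted p under 0.05, 14 members were lower in low RFI, against 3.39% of all genes, and 1 was higher (3.24% of all genes). Of the 100 members, 63 had a negative value in both breeds in H1, compared with 22.5% of the 12833 genes tested in both, and 2 were lower at an unadjusted p under 0.05 in both, compared with 0.327%.

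GSTM1 had the smallest p of the members in this comparison. It ran from 71.8 to 182.4 CPM with a median of 116.1 in the 7 low RFI steers and from 155.5 to 351.5 CPM with a median of 210.5 in the 9 high RFI steers. The groups overlapped in part, as 4 low RFI values lay below the whole high RFI group and 7 high RFI values lay above the whole low RFI group. The log2 fold change was -0.87 ± 0.23 (SE; edgeR adjusted p = 0.569), and DESeq2 called it (adjusted p = 0.0684). Its adjusted p ran from 0.0684 to 0.731 over the alternatives. The other identifier named GSTM1 had a log2 fold change of -0.87 ± 0.18 (SE; edgeR adjusted p = 0.315) and was called by DESeq2 (adjusted p = 0.00606). Both identifiers owe their symbol to the study's DESeq2 list from these libraries, so their DESeq2 calls are not separate evidence. PRDX6 in HF had a log2 fold change of -0.19 ± 0.13 (SE; edgeR adjusted p = 0.801).

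In the later phases the direction was mixed. For CH in ZG it rested on a single library, and for CH in H2 it differed with the scaling. The median member had a log2 fold change of 0.09 in CH in ZG, 0.07 in CH in H2 and 0.09 in HF in H2, while in HF in ZG it was -0.11. The medians of all genes in these fits lay between -0.002 and 0.04. These fits used TMM factors. By library total, the mean member level in CH in H2 ran the other way, averaging 0.107 in low and 0.185 in high RFI steers. Averages of the other later groups lay on the same side as the fold changes. At an unadjusted p under 0.05, 3 members were higher in CH in ZG (6.13% of all genes), 2 in CH in H2 (1.59%) and 5 in HF in H2 (1.41%), and 0 members were lower in any of the 3 (7.34%, 1.27% and 2.06% of all genes). Single steers moved these values. Without low RFI steer 788, the median member in CH in ZG was at -0.03, and 4 of the 5 members at an unadjusted p under 0.05 were lower. Of the members at this threshold in CH in ZG, 2 of 6 were lower without steer 1816, 1 of 3 was lower without steer 437, and 0 passed without steer 307. In HF in H2, 2 members passed without steer 1797, 3 without steer 1657 and 12 without steer 2071, of which 1 was lower. In HF in ZG, 0 members passed in either direction, against 2.09% of all genes, although 74 had a negative value, compared with 50.5% of all genes. In CH in ZG the 3 low RFI steers had 231.6, 359.3 and 432.5 CPM of GSTM1, and the 3 high RFI steers 239.3, 303.9 and 418.9 CPM, which overlapped throughout. PRDX6 in the same steers was at 178.1, 208.9 and 276.9 CPM in low RFI and at 208.6, 231.8 and 236.4 CPM in high RFI.

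**Figure D4:**
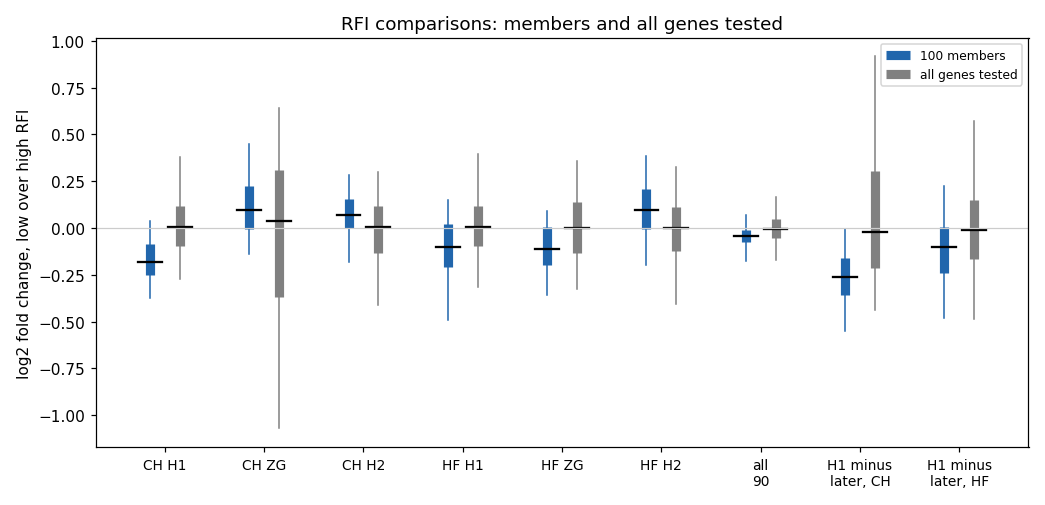
Log2 fold changes of low over high RFI for the 100 members (blue) and all genes tested (grey) in each breed and phase, over all 90 libraries, and for the difference between H1 and the mean of the later phases in each breed. Black ticks are medians, thick bars span percentiles 25 to 75 and thin lines percentiles 5 to 95. The members' median lies below that of all genes in H1 in both breeds (-0.18 in CH and -0.10 in HF) and in ZG in HF (-0.11). It lies above that of all genes in ZG in CH (0.09) and in H2 in both breeds (0.07 and 0.09). The fold changes use TMM factors, and by library total the mean member level in CH in H2 averaged lower in low RFI.

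The difference between the RFI effect in H1 and its mean in ZG and H2 was tested within each breed. In CH, 0 members were called by edgeR, as were 0% of the 13732 genes tested. The median member had a difference of -0.26 on the log2 scale, against -0.02 for all genes, and 25 members were more negative at an unadjusted p under 0.05, against 6.07% of all genes. CH in ZG, with 3 low and 3 high RFI steers, carried the same weight as CH in H2. The contrast was not refitted without single steers of ZG. By library total, the mean member level averaged lower in low than in high RFI steers in H1 (-0.310 against -0.231) and in H2 (0.107 against 0.185). In ZG it averaged 0.222 against 0.193. PRDX6 had a difference of -0.42 ± 0.15 (SE; edgeR adjusted p = 0.269). Because steers recur between phases, limma-voom was also run with the steer as a replicate block. It called 328 of the 13732 genes, 1 of them a member, while limma-voom with no block called 17 and no member. The count of 1 member was not compared with the share of all genes and is not a result about the members. In HF, 0 members and 0% of 13472 genes were called, the median member had a difference of -0.10 against -0.01 for all genes, and 3 members were more negative at an unadjusted p under 0.05 (1.74% of all genes). GSTM1 was one of these, with a difference of -0.87 ± 0.28 (SE; edgeR adjusted p = 0.625).

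One RFI effect fitted over all 90 libraries, with the 6 breed and phase means as covariates, gave no called member and 0% of 13695 genes called. The median member had a log2 fold change of -0.04, compared with -0.005 for all genes. At an unadjusted p under 0.05, 10 members were lower in low RFI, against 2.02% of all genes, and 1 was higher (2.63%). GSTM1 had a log2 fold change of -0.26 ± 0.11 (SE; edgeR adjusted p = 0.999) and PRDX6 of -0.15 ± 0.05 (SE; edgeR adjusted p = 0.939). The edgeR fit took the 90 libraries as independent, although some steers recurred between phases. Limma-voom with the steer as a replicate block called 0 genes as well. The phase difference itself was present in either RFI group taken alone. The members' median score was 0.37 in low and 0.32 in high RFI for CH, and 0.34 and 0.36 for HF, as a description of the values that chose them.

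Breeds were compared within each phase with RFI group as a covariate, and fold changes are HF over CH. In H1, 1 of the 100 members was called by edgeR, against 4.26% of all 13207 genes, and at an unadjusted p under 0.05 there were 8 members against 14.7% of genes. The called member was ENSBTAG00000020632, named after its values were seen. It ran from 13.4 to 26.4 CPM with a median of 18.1 in 20 CH steers and from 14.03 to 33.4 CPM with a median of 26.2 in 16 HF steers. Its log2 fold change was 0.33 ± 0.10 (SE; edgeR adjusted p = 0.0835), and without steer 1797 it was 0.32 and no longer called (adjusted p = 0.114). Over the alternatives its adjusted p ran from 0.0609 to 0.114.

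In ZG and H2, 0 members were called between breeds, against 0.0152% and 0.59% of all genes. The unadjusted p was under 0.05 for 4 members in ZG (2.82% of all genes) and for 3 in H2 (7.01%), where the count was 0 without steer 1797. The median member was higher in HF by 0.17 in ZG, where 78 members had a positive value and the median of all genes was -0.02. Without CH steer 788 the median member was at 0.30 and 10 members were at an unadjusted p under 0.05, and without steers 1816, 437 and 1831 the count was 1, 2 and 2. In H1 and H2 the median member was at -0.03 in both. These fold changes use TMM factors, and the order of the breeds differed by library total. There the mean member level averaged 0.208 in CH and 0.158 in HF in ZG, and 0.144 and 0.224 in H2. The H1 averages were -0.267 in CH and -0.257 in HF. In H1, GSTM1 was at a log2 fold change of -0.17 ± 0.17 (SE; edgeR adjusted p = 0.709) and PRDX6 at -0.04 ± 0.08 (SE; edgeR adjusted p = 0.885). Of the 1200 tests of members over the 12 comparisons, 1 was called, and 39 members had an unadjusted p of at least 0.05 in every comparison.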

How the data were processed

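The authors sequenced liver RNA as single-end mRNA libraries, aligned reads to the bovine genome build UMD3.1 with STAR 2.5.3a and deposited raw gene counts, without normalization, for Ensembl identifiers. Alignment and counting are fixed in the deposited counts and could split reads between gene copies. Gene positions and sequences were not used here. Symbols came from the study's own gene list, of which no values were used.

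Breed, phase and RFI labels defined the groups, and all 90 libraries were kept. Members were found as described above, from CPM by library total. The members, gene lists and tests were chosen with earlier results of these data known. Steer numbers are those in the library labels and pair libraries of the same animal. Single members are named where they were among the 5 largest scores, carried a symbol on a fixed list, or were called in a test; a member without a symbol is named only among the 5 largest scores, with 1 exception that the text states. Log2 fold changes came from edgeR 4.0.16 in R 4.3.3 (TMM, filterByExpr, robust quasi-likelihood, Benjamini-Hochberg over all genes tested, called under 0.1), with the standard error as the absolute log2 fold change over the square root of F. The fits were tested on simulated data. The alternatives were DESeq2 1.42.0, DESeq2 size factors, no filter on low counts, limma-voom (limma 3.58.1) with and without the steer as a replicate block, steers left out in turn in groups of 5 or fewer, fits without steer 1797, and other forms of the membership rule. Among the fits, steers were left out in turn only for RFI in CH in ZG and HF in H2, and for breed in ZG. Steers are separate animals within a group. Tables and figures were made with Python 3.11.15, pandas 2.3.3 and matplotlib 3.10.9.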

Additional observations from a re-analysis of the deposited data

Results flagged for a closer look

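In groups of 4 to 10 libraries, the highest and the lowest library were compared with the rest by the gap to the nearest library as a share of the range (Dixon's criterion), for the mean member level and for 7 single members. Of 72 such checks 7 stood out, where chance gives about 1 in 20. The mean member level of steer 419 was the lowest of 8 high RFI CH steers in H2, at -0.1998 against 0.162 in the next, and ENSBTAG00000018365 was also lowest in this steer, at 3718 CPM against 6735 CPM. ENSBTAG00000027625 was far above the rest in HF in H1 in 2 steers, at 125.3 CPM in low RFI steer 5632 (next 26.5 CPM) and at 38.5 CPM in high RFI steer 2071 (next 21.4 CPM). ENSBTAG00000018365 stood at 9167 CPM in low RFI HF steer 2220 in H1, next to 4999 CPM. ENSBTAG00000014169 was highest in high RFI HF steer 5632 in H2, at 12.7 CPM against 9.41 CPM in the next. PRDX6 was lowest in low RFI HF steer 2065 in ZG, at 149.4 CPM against 207.5 CPM in the next, and this was the library in which 48 of the 100 members were above their H1 level.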

How the results depend on the processing

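The rule applied in other forms shared 56 of the 100 members with TMM-scaled CPM, 64 with medians in place of means, 60 in low RFI libraries alone and 55 in high RFI libraries alone. It shared 90 to 95 with a mean CPM of 1 or more, without steer 1797 or with a pseudocount of 2, and 92 to 98 when single CH steers of ZG were left out.

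DESeq2 in place of edgeR called 160, 158 and 4 genes between RFI groups for CH in H1, ZG and H2, 26, 2 and 5 for HF, 2 over all libraries, 14 and 158 between breeds in ZG and H2, and 125 and 1 for the H1 difference in CH and HF. Of the 160 genes it called between RFI groups for CH in H1, 1 was a member (PRDX6, log2 fold change -0.40). Of the 26 for HF in H1, 1 was a member (GSTM1, -0.87). Between breeds in H1 it called 772 genes, of which 3 were members. These counts of members were not compared with the share of all genes and are not a result about the members. With DESeq2 size factors 2 genes were called for the H1 difference in CH and 0 between breeds in ZG, and without the filter on low counts 10 over all libraries and 0 between breeds in ZG. Without steer 1797, 0 members were called between breeds in H1, and the log2 fold change of ENSBTAG00000020632 was 0.32. Leaving out single steers gave 0 to 1 genes between RFI groups for CH in ZG and 0 to 6 between breeds in ZG.

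With the steer as a replicate block, 328 genes and 1 member were called for the H1 difference in CH, against 17 genes with no block, and the block changed no other count of calls. This count of members was likewise not compared with the share of all genes and is not a result about them.

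Some small fold changes turned sign. Leaving out single steers, the RFI fold change for CH in ZG ran from -0.073 to 0.40 for GSTM1 and from -0.19 to 0.19 for PRDX6, and for HF in H2 from -0.16 to 0.17 and from -0.046 to 0.042. Between breeds in ZG, GSTM1 ran from -0.056 to 0.11. Without the filter on low counts, the RFI fold change for HF in H2 was 0.015 for GSTM1 and 0.018 for PRDX6. The cause of these changes was not tested.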
